A study of Mus musculus with 4 samples.

Results

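The nuclear receptor superfamily was examined in mouse granulosa cells (GCs). A total of 46 receptor genes were chosen by gene symbol from a list of the family, out of 55385 genes in the deposited count table. Their values were not used in the choice, although earlier results of these data were known. The list does not hold every nuclear receptor, and ranks and shares given here are among those listed. Of the 46, 42 passed edgeR's filter on low counts, among 19259 genes tested, and 4 did not.

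GCs, which nourish the oocyte and make estradiol, had been collected from preantral follicles dissected from ovaries of female mice of the Kunming strain, at an age of 12 to 14 days, and cultured singly for 6 days. Follicles of the NT4 group (libraries NT4 1 and NT4 2) had received neurotrophin-4 (NT-4), a ligand of the receptor TRKB, and those of the Control group (Control 1 and Control 2) had not. Both groups had the same basal medium for in vitro growth (IVG) with insulin, transferrin, fetuin, albumin and FSH, the hormone that stimulates follicles to grow. The labels name no genetic change in either group, and Kunming is an outbred stock. By the study, the 2 libraries of a group came from independent experiments and the groups were cultured in parallel. Whether a replicate number marks the same experiment in both groups is not given in the sources used here, and neither is the number of follicles and mice behind each library.

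Nuclear receptors are transcription factors that bind DNA at short hexamers and recruit coactivators or corepressors, most of them under the control of a small lipophilic ligand such as a steroid, thyroid hormone, retinoic acid or an oxysterol. Others are orphan receptors whose activity is set mainly by their own abundance. In GCs they are known for the control of steroid synthesis (Nr5a1, Nr5a2), of the response to estradiol (Esr2) and of ovulation (Pgr), and many of them bind DNA only as a pair with a retinoid X receptor.

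The hexamer AGGTCA is the core that most non-steroid receptors recognise. In the promoter windows of RefSeq (GRCm38.p6, 250 bases before to 50 bases after a transcription start), 42 of the 46 receptors matched by symbol, with 63 windows. AGGTCA or its reverse complement TGACCT stood in 12 of the 63 windows (19%), against 16.3% of all 32851 windows, in 11 receptors: Nr0b1, Nr1d2, Nr1h4, Nr5a2, Nr6a1, Pparg, Rara, Rarg, Rxra, Rxrg and Thrb. The 250 bases before the start are shown for the 5 of them with the highest level per kilobase in these GCs, 5′ to 3′ on the gene's own strand, with the hexamer in capitals, so that the family's own element can be seen upstream of receptors described further on. The Nr5a2 stretch lies at chr1:136960449-136960698 on the minus strand, and its match begins 64 bases before the start. The window of a further annotated start of Nr5a2 holds no match.
Nr5a2: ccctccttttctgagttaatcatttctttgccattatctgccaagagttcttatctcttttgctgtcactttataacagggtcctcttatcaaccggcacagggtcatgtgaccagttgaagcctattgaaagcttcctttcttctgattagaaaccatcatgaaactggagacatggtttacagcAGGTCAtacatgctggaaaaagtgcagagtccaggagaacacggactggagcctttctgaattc
The Pparg stretch lies at chr6:115360894-115361143 on the plus strand, with a match 28 bases before the start. Pparg has further annotated starts, and 1 of their windows, not shown, holds AGGTCA 9 bases before its own start.
Pparg: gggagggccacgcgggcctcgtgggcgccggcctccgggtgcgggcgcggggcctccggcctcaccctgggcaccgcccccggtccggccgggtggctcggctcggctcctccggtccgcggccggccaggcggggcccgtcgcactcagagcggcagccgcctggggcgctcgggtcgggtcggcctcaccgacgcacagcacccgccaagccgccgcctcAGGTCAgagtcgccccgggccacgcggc
The Rxra stretch belongs to a second annotated start, at chr2:27709042-27709291 on the plus strand, and holds the hexamer once on each strand, 87 and 48 bases before that start.
Rxra: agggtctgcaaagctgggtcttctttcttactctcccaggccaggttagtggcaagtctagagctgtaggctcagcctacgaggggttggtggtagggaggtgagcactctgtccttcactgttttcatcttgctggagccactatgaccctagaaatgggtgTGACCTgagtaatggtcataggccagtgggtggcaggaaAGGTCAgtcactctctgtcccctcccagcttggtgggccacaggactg
The Rarg stretch lies at chr15:102257523-102257772 on the minus strand, with a match 225 bases before the start. The window of a further annotated start of Rarg holds no match.
Rarg: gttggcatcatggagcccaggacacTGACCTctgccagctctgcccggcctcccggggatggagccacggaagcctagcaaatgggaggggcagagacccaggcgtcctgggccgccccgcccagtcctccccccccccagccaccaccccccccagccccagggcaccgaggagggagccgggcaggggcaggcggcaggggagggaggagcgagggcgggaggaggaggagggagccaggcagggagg
The Nr1d2 stretch lies at chr14:18239107-18239356 on the minus strand, with a match 77 bases before the start.
Nr1d2: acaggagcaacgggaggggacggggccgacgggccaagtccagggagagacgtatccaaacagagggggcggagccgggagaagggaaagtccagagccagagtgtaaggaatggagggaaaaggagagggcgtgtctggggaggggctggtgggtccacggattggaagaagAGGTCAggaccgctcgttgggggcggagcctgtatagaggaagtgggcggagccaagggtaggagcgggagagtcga
The longer element CAAGGTCA of the NR5A receptors, of which AGGTCA is a part, was found on either strand in 0 of the 63 windows and in 1.56% of all windows. The ROR element, an A/T-rich stretch that ends in AGGTCA, was found in 0 of the 63 and in 0.35% of all. The cAMP element TGACGTCA stood in 2 windows (Nr2e1 and Nr6a1) against 1.79% of all, and the E-box CACGTG, to which the clock activators bind, in 6 windows of 5 receptors (Esr2, Nr0b2, Nr1i3, Rara and Thrb) against 7.15% of all. These matches describe the letters in the windows only.

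The libraries held totals of 49520092 to 78704020 counts, at about 4 counts for each read pair, and 22363 to 23052 genes with a count. All 12 granulosa markers examined were detected, with means from 16.5 to 7324 CPM (TMM-scaled counts relative to library size). Summed oocyte markers stood between 94.1 and 135 CPM, and 7 of the 11 tested were lower in both libraries numbered 2 than in both numbered 1. Summed macrophage markers were low and stood higher in both NT4 libraries, at 3.31 and 2.33 CPM in the Control libraries and 4.395 and 3.78 CPM in the NT4 libraries (Tyrobp at 0, with 2 of the 6 markers tested higher in both NT4 libraries and 4 lower in both libraries numbered 2). Of 8 endothelial markers, 4 were higher and 1 lower in both NT4 libraries, with sums of 33.7 and 26.2 CPM in Control and 35.9 and 29.5 CPM in NT4. Summed markers of theca and stroma were 1433 and 1427 CPM in the Control libraries and 2034 and 1714 CPM in the NT4 libraries, and 10 of the 12 markers were higher in both NT4 libraries than in both Control libraries. The part of these markers in the differences between groups given below was not tested. The GC markers split by replicate number: 8 of 12 were higher and 4 lower in both libraries numbered 2. Over all genes tested, both NT4 libraries were higher in 13.4% and lower in 12.7%. Both libraries numbered 2 were higher in 24.8% of all genes and lower in 24.3%. In such bulk RNA, fewer cells of a type and less RNA in each cell cannot be told apart.

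Which receptors GCs transcribed was asked first. Of the 46 receptors, 33 had a mean of at least 1 CPM, 23 of at least 10 CPM and 7 of at least 100 CPM, while 9 were tested at a mean under 1 CPM. Rarb, Rxrg and Hnf4g had no count in any library, where a count of 0 allows up to 3 read pairs or 0.156 to 0.239 CPM by library (counting error only). Nr2e3, a photoreceptor gene, had 0, 4, 0 and 4 counts. Compared per kilobase of exon, Nr5a2 was the highest at 104.8 CPM per kilobase, followed by Nr4a1 at 96.9, Esr2 at 84.7, Nr5a1 at 55.4 and Pparg at 35.1. These 5 held 65.3% of the CPM summed over the 46 receptors listed. The libraries of Nr4a1 overlapped those of Nr5a2 and of Esr2 on this scale, while every library of Nr5a2 lay above every library of Esr2. Every library of Esr2 was above every library of Nr5a1, and the same held for Nr5a1 over Pparg, Pparg over Thra and Thra over Rxra. Rxra and Nr1h2 overlapped, as did each neighbouring pair from Rxrb through Nr2f6, Rarg, Nr1d2 and Rara to Nr1d1. The 10 highest receptors were the same with the length of the longest transcript in place of the union of exons. Of the 42 tested receptors, 17 lay above the median level per kilobase of all genes tested.

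**Figure D1:**
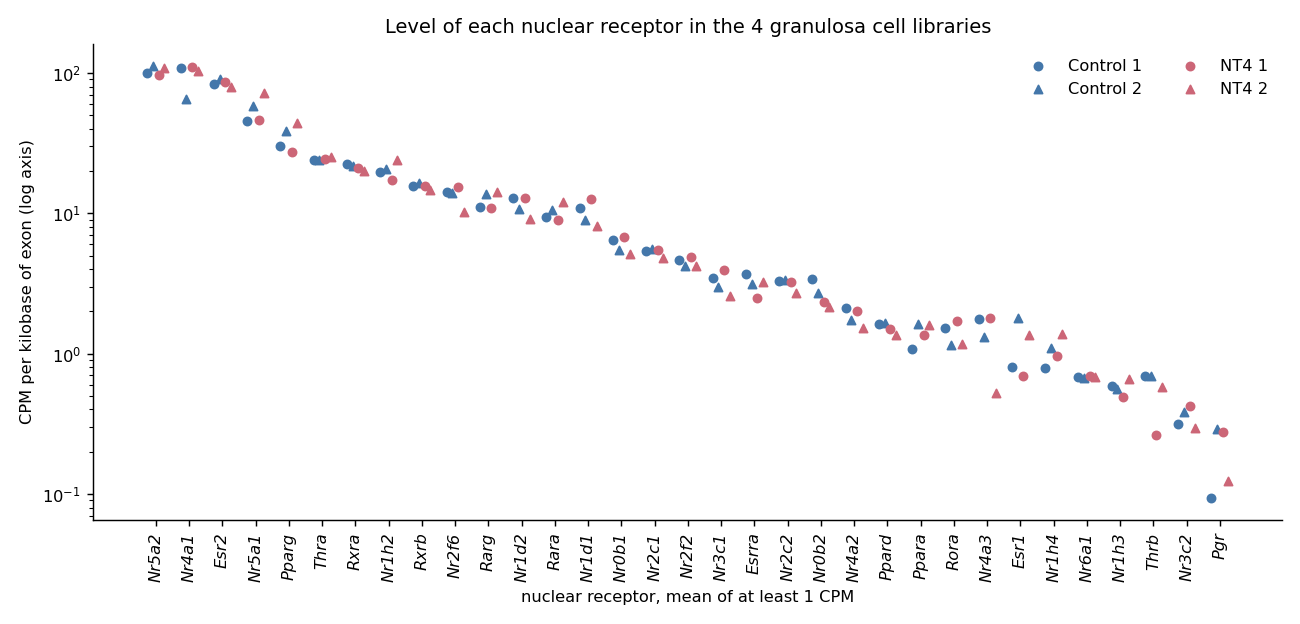
Level of the 33 receptors with a mean of at least 1 CPM, as CPM per kilobase of exon on a log axis, with 1 point for each library (circles for replicate number 1, triangles for number 2; blue for Control, red for NT4). The levels span from 104.8 CPM per kilobase for Nr5a2 to 0.196 for Pgr, and the 4 libraries of a receptor mostly lie close together beside that span.

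Whether NT-4 changed the receptors was asked next. No receptor changed at an adjusted p under 0.05 in edgeR's quasi-likelihood test (0 of 42, smallest adjusted p 0.9999), where the test called 0% of all 19259 genes. At an unadjusted p under 0.05, 1 of 42 receptors passed (Vdr), beside 1.99% of all genes tested. Vdr had no count in the Control group and passed the filter on low counts only through the NT4 group, so its call is not read as a change. By the Wald test of DESeq2, 65 genes and 0 receptors passed the adjusted threshold. The study's criterion asks for a fold above 2 or below 0.5 besides that unadjusted p, and the fit counted 1 receptor, Vdr over a group at 0, and 1.08% of all genes. A log2 fold change above 0 was found in 22 of 42 receptors, beside 51% of all genes, and one above 1 or below -1 in 5 of 42, all under 1 CPM, beside 6.76% of all genes. Both counts hold Vdr, whose value over a group at 0 is not read as a fold. The summed CPM of the 46 receptors was 2389 and 2414 in the Control libraries and 2376 and 2513 in the NT4 libraries. The median log2 fold change of the receptors tested was 0.0019 and that of all genes 0.0045, while the median size of the change, sign set aside, was 0.11 for the receptors and 0.15 for all genes. Among the 33 receptors at 1 CPM or more it was 0.097, beside 0.11 for all genes at that level. Of 41 receptors with counts in both groups, 30 had a log2 fold change smaller than its standard error (SE), 11 had one between 1 and 2 SE, and 0 exceeded 2 SE. The SE was derived from the same test, as the fitted coefficient before shrinkage over the square root of the F statistic. These counts are therefore no separate measure of spread. With 2 libraries against 2 the smallest two-sided permutation p is 0.333, so the tests depend on a spread estimated over many genes together. The sign of the fold change turned in 25 of these 41 receptors when 1 library was left out.

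The 2 NT4 libraries lay both above or both below the 2 Control libraries in 12 of 42 receptors, beside 26% of all genes tested. They were higher in 4 receptors (Thra, Esrrb, Esrrg and Vdr), beside 13.4% of all genes, and lower in 8 (Rxra, Rxrb, Nr2c2, Nr0b2, Ppard, Thrb, Nr1i2 and Rorb), beside 12.7% of all genes. Among the 33 receptors at 1 CPM or more this was so in 7, beside 23.9% of all genes at that level. As shares of the 42 receptors the 3 counts are 28.6%, 9.52% and 19%. The 12 and the 4 hold Vdr, which passed the filter on low counts only through the NT4 group, so its place in them is not read as a change. Nr1i2, among the 8, had counts of 15 and 15 in the Control libraries and 0 and 12 in the NT4 libraries. At about 4 counts for each read pair, its place is not read as a change either.

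**Figure D2:**
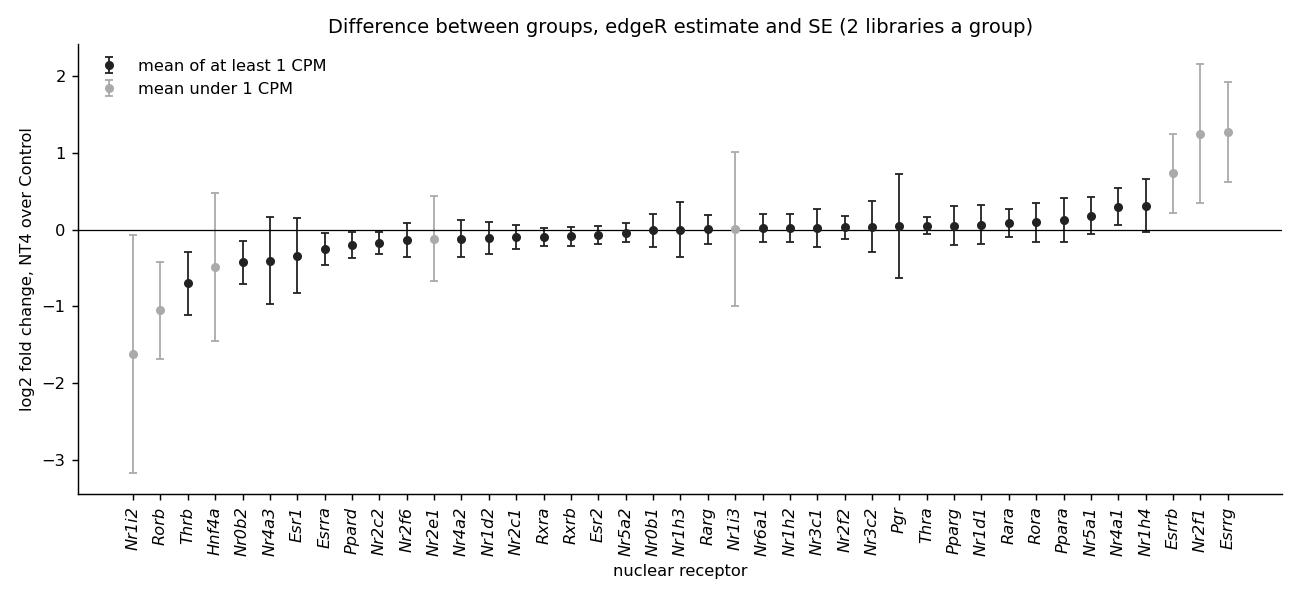
log2 fold change of NT4 over Control for the 41 receptors with counts in both groups, with bars of 1 SE derived from edgeR's F statistic (2 libraries a group). Black points are receptors with a mean of at least 1 CPM and grey points those under it. The black points lie between -0.70 for Thrb and 0.31 for Nr1h4, and the widest bars belong to receptors under 1 CPM.

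The steroidogenic-factor and germ-cell orphan receptors (Nr5a1, Nr5a2 and Nr6a1) held 35.5% of the summed CPM of the receptors listed. Nr5a2 (chr1:136842571-136960448 in GRCm38, as for all positions here, minus strand), which drives steroidogenic and ovulatory genes in GCs, stood at 589 and 666 CPM in the Control libraries and at 574 and 644 CPM in the NT4 libraries. The groups overlapped, and in each group the library numbered 2 was the higher. Its means were 627 ± 54.1 CPM in Control and 609 ± 49.0 in NT4 (SD, n = 2), a log2 fold change of -0.04 (SE 0.13). Nr5a1 (chr2:38692656-38714542, minus strand), which encodes steroidogenic factor SF-1, was at 194 and 246 CPM in the Control libraries and at 196 and 303 in the NT4 libraries. The number 1 libraries were nearly level and the number 2 libraries were both higher, so the log2 fold change of 0.18 (SE 0.24) was within the spread. Nr5a2 exceeded its paralogue per kilobase in every library, by 2.18 and 1.95 times in Control and 2.10 and 1.53 times in NT4. Nr6a1, a receptor known from germ cells, stood at 7.39, 7.27, 7.51 and 7.33 CPM (Control 1, Control 2, NT4 1, NT4 2, the order used from here on), the narrowest spread of the 33 receptors at 1 CPM or more.

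Of the 5 steroid hormone receptors listed, Esr2 had the highest level per kilobase. Esr2 (chr12:76120419-76177259, minus strand), the main estrogen receptor of GCs, measured 282, 303, 288 and 267 CPM, with overlapping groups and a log2 fold change of -0.07 (SE 0.12). Esr1 (chr10:4611593-5005614, plus strand), the other estrogen receptor and in the ovary best known from theca and stroma, measured 10.9, 24.5, 9.40 and 18.6 CPM. In each group the number 2 library was far above the number 1 library, by more than the groups differed (log2 fold change -0.34, SE 0.49). That fold change ran from -0.91 without NT4 2 to 0.37 without Control 2. Per kilobase, Esr2 was 105 and 50.3 times as high as Esr1 in Control and 124 and 58.5 times in NT4. Nr3c1, the glucocorticoid receptor, stood at 26.7, 22.9, 30.5 and 19.9 CPM, lower in both number 2 libraries. Nr3c2, the mineralocorticoid receptor, stood at 2.03, 2.47, 2.73 and 1.91 CPM, with no order by group or number. Pgr, the progesterone receptor that the ovulatory surge induces in GCs, was low at 0.80, 2.50, 2.37 and 1.05 CPM, so that 1 library of each group was high and the other low (log2 fold change 0.05, SE 0.68).

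The NR4A receptors are immediate-early genes that hormones, cAMP and handling can induce within a short time. Nr4a1 (chr15:101254269-101274795, plus strand) measured 379, 231, 388 and 362 CPM. Control 2 stood apart below the other 3 libraries, and the group means of 305 ± 105 CPM in Control and 375 ± 18.6 in NT4 (SD, n = 2) gave a log2 fold change of 0.30 (SE 0.24, unadjusted p = 0.274 in edgeR). Without Control 1 the log2 fold change was 0.70, and without Control 2 it was -0.01. Nr4a2 measured 8.53, 7.09, 8.21 and 6.18 CPM. Nr4a3 measured 10.5, 7.81, 10.7 and 3.15 CPM, with NT4 2 alone far below the rest, and its log2 fold change of -0.41 (SE 0.57) became -1.54 without NT4 1 and 0.22 without NT4 2. In all 3 NR4A genes both number 2 libraries were lower than both number 1 libraries. Per kilobase, Nr4a1 exceeded Nr4a2 by 37.6 to 67.8 times and Nr4a3 by 50.4 to 196.0 times over the 4 libraries.

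The retinoid X receptors, the shared partners of many other family members, stood slightly lower in both NT4 libraries, a difference that did not pass the test. Rxra (chr2:27676440-27762957, plus strand) stood at 122, 118, 115 and 109 CPM, and both NT4 libraries lay under both Control libraries by a narrow margin. Its log2 fold change was -0.10 (SE 0.11), smaller than its error. Rxrb (chr17:34031812-34038399, plus strand) stood at 62.6, 64.8, 61.7 and 58.1 CPM, again without overlap (log2 fold change -0.09, SE 0.12). The ratio of Rxra to Rxrb per kilobase was 1.42 and 1.32 in Control and 1.35 and 1.37 in NT4. Their relative Rxrg was at 0.

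Of the thyroid hormone receptors, Thra (chr11:98740638-98769006, plus strand) was nearly level at 110, 110, 113 and 115 CPM, with both NT4 libraries above both Control libraries by a small margin (log2 fold change 0.05, SE 0.11). Its exons share 263 bases with those of Nr1d1 on the opposite strand. By the study, U-labelled second strands were treated with UDG, a step that keeps the strand of origin. Whether counting used strand is not stated, so a share of the reads of Thra could come from Nr1d1. The same holds the other way, so the level of Nr1d1 is uncertain too. Thrb (chr14:17660261-18038090, plus strand) measured 5.10, 5.09, 1.96 and 4.31 CPM. The Control libraries agreed closely and NT4 1 alone was far below them, which gave the lowest log2 fold change among receptors at 1 CPM or more, -0.70 (SE 0.41, unadjusted p = 0.146 in edgeR). Without NT4 2 it was -1.38, and without NT4 1 it was -0.25. Per kilobase, Thra was 34.7 and 34.6 times as high as Thrb in Control and 92.7 and 43.0 times in NT4.

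The retinoic acid receptors Rara and Rarg, which act as partners of the retinoid X receptors, followed the replicate number. Rara stood at 41.0, 45.8, 39.4 and 52.6 CPM (log2 fold change 0.08, SE 0.19) and Rarg at 47.6, 58.9, 46.6 and 60.1 CPM (0.0031, SE 0.19). In both genes the number 2 libraries were the higher ones in each group. Vdr, the vitamin D receptor (chr15:97854425-97910630, minus strand), had 0 counts in both Control libraries and 12 counts, about 3 read pairs, in each NT4 library. It reached an unadjusted p of 0.0220 (adjusted p 0.9999, edgeR), but a count of 0 itself allows up to 3 read pairs, so no fold is given and a difference was not detectable at this depth.

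Lipid sensors were led by Pparg. Pparg (chr6:115360951-115490399, plus strand), a receptor for fatty acids that GCs are known to express during follicle growth, stood at 89.3, 114, 81.1 and 130 CPM. Both number 2 libraries were higher, and the group means of 102 ± 17.8 and 106 ± 34.8 CPM (SD, n = 2) differed by less than their spread (log2 fold change 0.05, SE 0.26). Ppard, its broadly expressed relative, measured 12.2, 12.5, 11.2 and 10.2 CPM, with both NT4 libraries lower (log2 fold change -0.20, SE 0.17). Ppara, the receptor of fatty acid oxidation, measured 4.10, 6.25, 5.20 and 6.14 CPM. Per kilobase, Pparg exceeded Ppard by 18.4 to 32.5 times over the 4 libraries. The oxysterol receptor Nr1h2 stood at 66.4, 69.9, 58.0 and 80.0 CPM, and its paralogue Nr1h3, usually the form of liver and macrophages, at 1.47, 1.41, 1.24 and 1.65 CPM. Nr1h2 was higher per kilobase by 33.8 to 37.2 times, a ratio that hardly moved between libraries. The bile acid receptor Nr1h4 stood at 1.81, 2.52, 2.21 and 3.18 CPM, the highest log2 fold change among receptors at 1 CPM or more (0.31, SE 0.35). It was 0.026 without NT4 2 and 0.58 without Control 2. The hepatic receptors Hnf4a, Nr1i2 and Nr1i3 were all under 1 CPM. Nr1i2 measured 0.30, 0.20, 0 and 0.16 CPM, lower in both NT4 libraries, from counts of 15, 15, 0 and 12. Nr1i3 measured between 0.091 and 0.24 CPM. Hnf4a measured 0.24, 0.71, 0.13 and 0.54 CPM, higher in both number 2 libraries, from counts of 12, 52, 8 and 42.

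The clock receptors of the REV-ERB class, which repress the clock gene Arntl, stood lower in both libraries numbered 2. Nr1d1 (chr11:98767932-98775333, minus strand) measured 33.4, 27.5, 38.8 and 24.8 CPM and Nr1d2 (chr14:18204054-18239127, minus strand) measured 69.7, 57.7, 69.3 and 49.1 CPM. Their log2 fold changes of 0.06 (SE 0.25) and -0.11 (SE 0.21) were well inside the error. Per kilobase, Nr1d2 was 1.02 to 1.19 times as high as Nr1d1. Rora, which activates the same targets, followed the same order at 19.98, 15.1, 22.2 and 15.3 CPM. Rorb, best known from retina and brain, was under 1 CPM at 0.82, 0.57, 0.43 and 0.23 CPM, lower in both NT4 libraries (log2 fold change -1.05, SE 0.63, from counts of 41, 42, 27 and 18).

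Of the 7 NR2 orphan receptors, 4 stood above 10 CPM and 3 under 1 CPM. Nr2f2, a COUP-TF receptor best known from ovarian stroma and theca, stood at 40.0, 36.6, 42.2 and 36.1 CPM, and Nr2f6, a further COUP-TF relative, at 42.0, 41.9, 45.9 and 30.6 CPM, where NT4 2 was the low library. Nr2f1 was under 1 CPM in each library, at 0.30, 0.11, 0.69 and 0.27. The testicular receptors Nr2c1 and Nr2c2 measured 24.8, 25.6, 25.2 and 22.0 CPM and 49.1, 50.4, 48.0 and 40.2 CPM. Both NT4 libraries of Nr2c2 were the lower ones (log2 fold change -0.18, SE 0.15), and the value was -0.054 without NT4 2 and -0.32 without NT4 1. Exons of Nr2f6 overlap Ocel1 over 1622 bases and those of Nr2c2 overlap genes including Mrps25 over 4657 bases, on the opposite strand in each case, so their levels are uncertain in the same way as that of Thra. In all, 11 of the 46 receptors share exon bases with a gene on the opposite strand and 3 with a gene on the same strand. Nr1i3 is among the 11, with 3304 bases shared with Tomm40l. Nr2e1, a receptor of the developing brain and retina, was under 1 CPM at 0.62, 0.46, 0.50 and 0.49.

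The DAX-like receptors lack a DNA-binding domain and repress other members, above all the NR5A receptors. Nr0b1 (chrX:86191764-86195947, plus strand) measured 11.7, 9.93, 12.2 and 9.28 CPM, lower in both number 2 libraries, in the opposite order to Nr5a1. Per kilobase, Nr5a1 exceeded Nr0b1 by 7.09 and 6.87 times in the number 1 libraries and by 10.6 and 13.9 times in the number 2 libraries. Nr0b2, known as SHP, measured 3.83, 3.04, 2.65 and 2.45 CPM, with both NT4 libraries lower. Its log2 fold change of -0.43 (SE 0.28) did not pass the test, and was -0.26 without Control 1 and -0.58 without Control 2. The estrogen-related receptors, which act without estradiol and drive mitochondrial genes, were represented mainly by Esrra at 16.3, 13.8, 10.96 and 14.3 CPM (log2 fold change -0.25, SE 0.21; -0.080 without NT4 1 and -0.46 without NT4 2). Its exons overlap those of Trmt112 and Mir6990. Esrrb measured 0.42, 0.81, 0.96 and 1.10 CPM and Esrrg 0.28, 0.23, 0.45 and 0.78 CPM. Both were higher in both NT4 libraries, with log2 fold changes of 0.73 (SE 0.51) and 1.27 (SE 0.65, unadjusted p = 0.104 in edgeR), at levels near or under 1 CPM, and neither passed the test. With 1 library left out the values ran from 0.34 to 1.31 for Esrrb and from 0.82 to 1.60 for Esrrg.

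The libraries were also compared by replicate number. Both libraries numbered 2 lay on the same side of both numbered 1 in 24 of 42 receptors, beside 49.1% of all genes tested, and in 20 of 33 at 1 CPM or more, beside 52.8% of all genes at that level. They were higher in 10 (Nr5a2, Nr5a1, Pparg, Nr1h2, Rarg, Rara, Ppara, Esr1, Nr1h4 and Hnf4a), beside 24.8% of all genes, and lower in 14, beside 24.3%. The 14 included all 3 NR4A genes, Nr1d1, Nr1d2 and Rora, Nr3c1, Nr0b1, Nr2f6, Nr2f2 and Nr6a1. The remaining 3, Nr2e1, Nr2f1 and Nr1i3, were under 1 CPM. As shares of the 42 receptors these counts are 57.1%, 23.8% and 33.3%, and what the number stands for is not stated. Granulosa, oocyte and macrophage markers moved with the number as given above, and their part in this split was not tested.

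**Figure D3:**
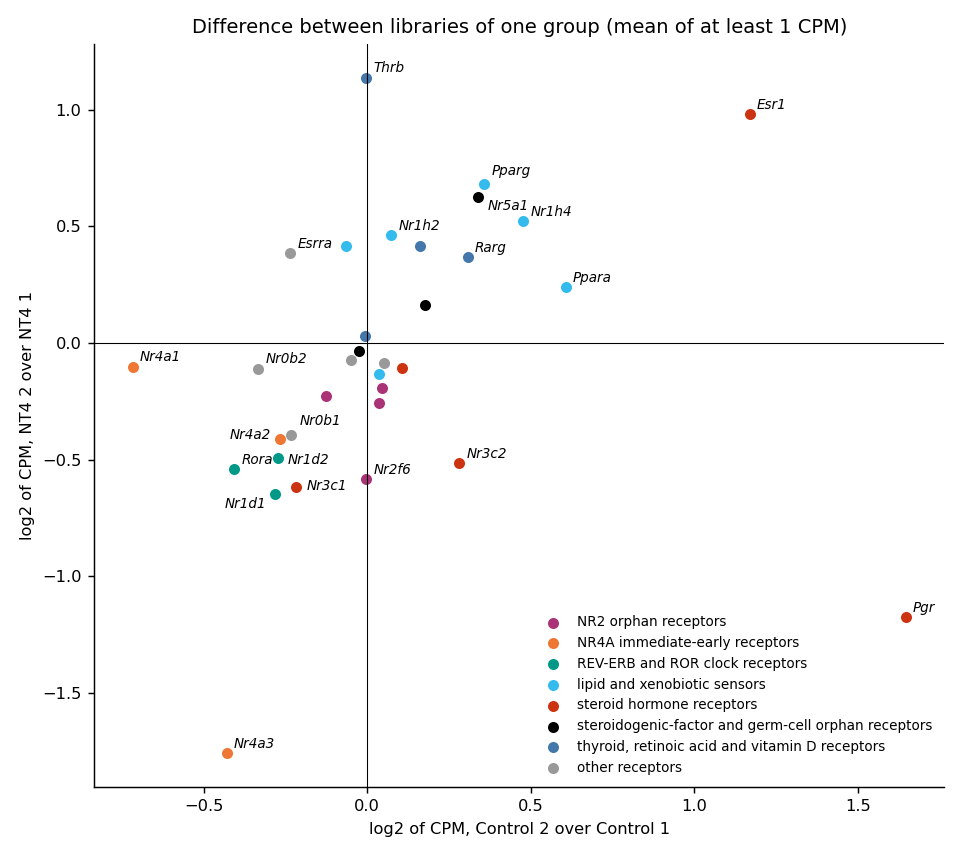
log2 ratio of library 2 over library 1 in the Control group (x axis) against the same ratio in the NT4 group (y axis), 1 point for each of the 33 receptors with a mean of at least 1 CPM, coloured by role group. Esr1 lies at the upper right, with ratios of 1.17 and 0.98, the clock receptors and NR4A genes lie at the lower left, and Pgr, at 1.65 and -1.18, moved in opposite directions.

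Genes that work with the receptors were then counted, from lists written by hand, beside a median log2 fold change of 0.0045 over all genes tested. The 7 lists held 26, 12, 26, 12, 16, 18 and 15 tested genes, with some genes in several lists. In edgeR's quasi-likelihood test 0 of these genes passed an adjusted p of 0.05, while 3 had an unadjusted p under 0.05 (Pprc1, Klf9 and Tef), beside 1.99% of all genes tested. The DESeq2 Wald test called 1 of them, Tef. Of 26 coregulators, the proteins that receptors recruit to chromatin, 24 had a log2 fold change below 0 and 2 above, with a median of -0.15. Both NT4 libraries were lower than both Control libraries in 6 of them (Ncor1, Nrip1, Pprc1, Nsd1, Lcor and Prox1), beside 12.7% of all genes, and higher in 0. Pprc1, a coactivator of the PGC-1 family, measured 81.0, 68.2, 40.0 and 52.0 CPM, with a log2 fold change of -0.70 (SE 0.18) and, alone in the list, an unadjusted p under 0.05 (unadjusted p = 0.0111, adjusted p 0.9999 in edgeR). At the other end, Prmt1, an arginine methyltransferase, had a log2 fold change of 0.15. Without NT4 2 the list's median was -0.04, with 14 of 26 below 0, and without NT4 1 it was -0.29, with 22 of 26 below 0. The corepressor Ncor1 stood at 211, 203, 193 and 171 CPM, lower in both NT4 libraries. Of 12 receptor chaperones, 6 were above 0 and 6 below, with a median of -0.01, from Dnajb1 at 0.16 to Hsp90aa1 at -0.17. That median was 0.047 without Control 2 and -0.051 without NT4 1.

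Of 31 enzymes and carriers that make, break down or move the ligands, 26 were tested, with 19 above 0, 7 below and a median of 0.10. Both NT4 libraries were higher in 6, among them Hsd11b1, Srd5a1, Aldh1a1, Aldh1a3 and Ch25h, beside 13.4% of all genes, and lower in 0. Aldh1a1, a retinaldehyde dehydrogenase that makes retinoic acid, measured 642, 753, 767 and 896 CPM (log2 fold change 0.25, SE 0.14). Aldh1a3 had the highest log2 fold change of the list, 1.68 (SE 0.77), but measured only 0.38, 0.11, 0.72 and 0.82 CPM. The lowest was Cyp27b1, at -0.43 (SE 1.20) and under 1 CPM. Without Control 1 or without NT4 2 the list split evenly, with 13 above and 13 below 0, and its median ran from -0.0030 without Control 1 to 0.34 without NT4 1. The summed theca and stroma markers given above were also higher in both NT4 libraries, and their part in this list was not tested.

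Among 12 known targets of the NR5A receptors, 8 were above 0 and 4 below, with a median of 0.07. Cyp11a1, which makes pregnenolone from cholesterol, was the highest at 128, 245, 199 and 323 CPM (log2 fold change 0.49, SE 0.37), and Nr0b2, itself a receptor, was the lowest at -0.43. Cyp11a1 was higher in both number 2 libraries, like Nr5a1 and Nr5a2, an order seen in 24.8% of all genes tested. In this list Cyp19a1, Inha, Inhba, Scarb1, Hsd3b1 and Por were also higher in both. Amh and Nr0b1 were lower in both, beside 24.3% of all genes, and Star, Fdx1 and Nr0b2 had no order by number. A part of the NR5A receptors in this order was not tested. The median of this list was -0.090 without Control 1 and 0.20 without NT4 1. In 16 targets of the glucocorticoid and progesterone receptors, 9 were above 0, with a median of 0.07. Klf9, a transcription factor, was the highest at 14.6, 10.6, 34.8 and 20.1 CPM, with no overlap between groups and a log2 fold change of 1.13 (SE 0.32, unadjusted p = 0.0154, adjusted p 0.9999 in edgeR). The lowest was Edn2, at -0.19 (SE 0.83). This median was -0.058 without Control 1 and 0.18 without NT4 2. In 18 targets of the oxysterol and fatty acid receptors, 9 were above and 9 below 0, with a median of 0.01, from Abcg1 at 0.77 (SE 1.27) to Pdk4 at -0.20 (SE 0.17).

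In 15 clock genes, 7 were above 0 and 8 below, with a median of -0.01, which was -0.088 without NT4 1 and 0.065 without NT4 2. Tef, a transcription factor of the PAR bZIP class under clock control, measured 34.6, 39.8, 77.0 and 86.3 CPM. Its NT4 libraries stood well above its Control libraries, with a log2 fold change of 1.13 (SE 0.14, unadjusted p = 0.000401, adjusted p = 0.593 in edgeR), the smallest p in the 7 lists. By the DESeq2 Wald test its adjusted p was 4.18e-07, while over the other alternatives, all in edgeR, it ran from 0.159 to 0.693. Its relative Dbp measured 7.25, 8.03, 7.76 and 6.75 CPM, with overlapping groups. Arntl, on which the REV-ERB and ROR receptors act, measured 9.15, 8.14, 9.82 and 11.2 CPM, higher in both NT4 libraries (log2 fold change 0.29, SE 0.19). Clock had the lowest log2 fold change of the list, -0.14 (SE 0.20).

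**Figure D4:**
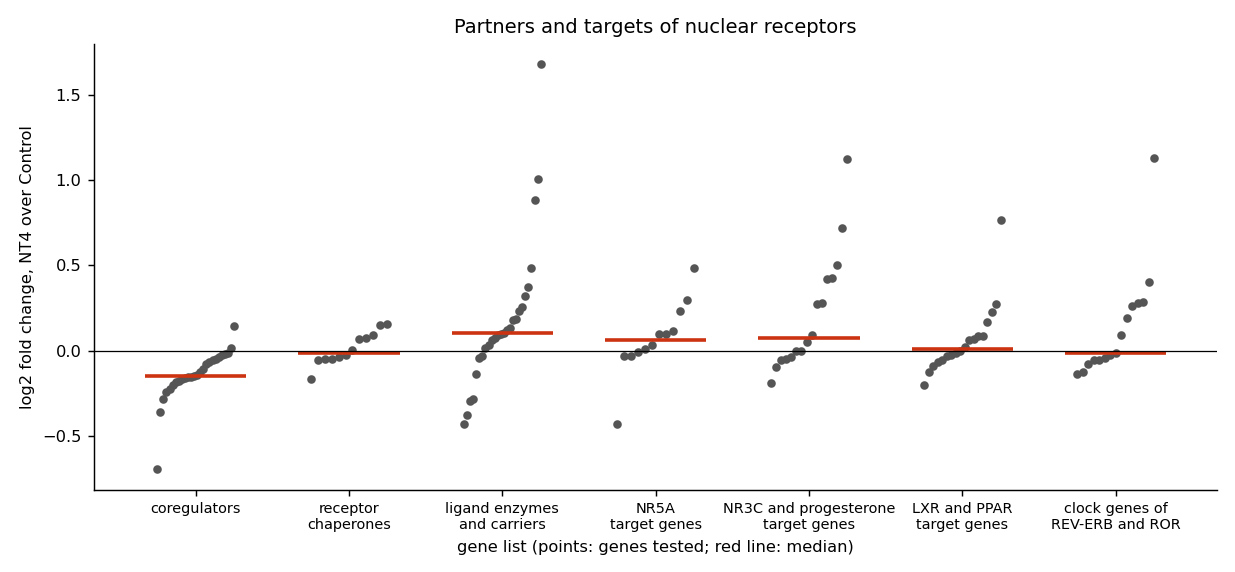
log2 fold change of NT4 over Control for each tested gene of the 7 lists of receptor partners and targets, 1 point for a gene and a red line at the median of its list. The coregulator points lie mostly under 0, with a median of -0.15, and Aldh1a3 (1.68), Tef (1.13) and Klf9 (1.13) are the highest points of their lists.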

How the data were processed

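Bulk mRNA of GCs was sequenced in 4 libraries, 2 for each group, grouped by their labels. By their methods, the authors trimmed reads with Cutadapt, aligned them to the Ensembl mouse genome (GRCm38) with HISAT2, and assembled and quantified transcripts using StringTie and ballgown. What they deposited are expected counts for each gene, as whole numbers without normalization. How the authors made whole counts from these estimates, and whether counting used strand, is not stated. Between 45.4% and 46.2% of genes with a count from 1 to 12 stood at 4, 8 or 12, so 1 read pair was taken as about 4 counts.

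Genes were matched by identifier to the GRCm38 annotation of GENCODE M21 (55144 of 55385 with a symbol). Counts were tested with edgeR 4.0.16 in R 4.3.3: TMM, the default filter, the two-sided quasi-likelihood test with the group alone in the model, and Benjamini-Hochberg adjustment over 19259 genes. The procedure was tested on simulated data, with known changes set only in genes at higher counts and a spread taken from the trend over genes. That test does not cover receptors at low counts or the spread of single genes. CPM used TMM-scaled libraries, and levels were set per kilobase of the union of exons. All 46 members are accounted for. Values in every library are given for those at 1 CPM or more and for any that met the study's criterion (a fold above 2 or below 0.5 and an unadjusted p under 0.05). Other genes are the extremes of a list or those a result turns on. A few more (Ncor1, Aldh1a1, Dbp, Arntl, and receptors under 1 CPM) were added after their values were seen. The members and lists were chosen with earlier results of these data known. Alternatives were DESeq2 1.42.0 (size factors, and the Wald test), no filter, counts divided by 4, a block for the replicate number, each library left out in turn, and the longest transcript as length. Those for the split by replicate number and for the medians and calls of the lists were chosen after seeing the data.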

Additional observations from a re-analysis of the deposited data

How the results depend on the processing

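With 4 libraries, the limits are those of depth and number: a receptor under 1 CPM rests on at most 85 counts in a library, at about 4 for each read pair, and the lone library left in a group was assumed to vary like the others. None of the 41 receptors given a fold change passed an adjusted p of 0.05 under any alternative. The sign of 16 of them held throughout. Of 362 values under alternatives, 309 kept their sign and side of the threshold and 53 changed sign, 42 of them with a library left out. The cause was not tested. Genes with an adjusted p under 0.05 numbered 0 in edgeR, 10 without the filter on low counts and 65 by the DESeq2 Wald test, and ranged from 0 to 37 when each library was left out (12 without Control 1, 37 without Control 2). Genes meeting the study's criterion numbered 208, against 345 without the filter, 119 with counts divided by 4, which left fewer genes to test (15662), and 341 to 512 with a library left out. Receptors meeting it numbered 1, against 0 with counts divided by 4 and 0 with the replicate block. Receptors at an unadjusted p under 0.05 likewise numbered 1, against 0 and 0, and both counts took values from 0 to 2 when 1 library was left out. By unadjusted p alone these were Nr4a1 without Control 1, Nr2f6 and Nr4a3 without NT4 1, and Thrb and Nr1i2 without NT4 2. Nr1i2 had no count in NT4 1, the lone NT4 library then left. It passed the filter on low counts only through the Control group there, so its call is not read as a change. The median log2 fold change of the receptors lay between -0.14 and -0.0064 when 1 library was left out. Receptors whose groups did not overlap numbered 12 (Vdr among them), and 8 of 34 with counts divided by 4. Those split by replicate number were 24, and 20 to 24 under the other settings.

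The replicate block called 0 genes at an adjusted p under 0.05 and 180 by the criterion. Taken as a difference from its group's mean, a library correlated with the library of the same number in the other group, across genes that are not independent replicates, at a Pearson's r of 0.14 and a Spearman's rho of 0.26 over all genes tested, and at 0.31 and 0.44 over 10491 genes at higher levels. With 2 numbers this does not establish pairs. Under the block, the log2 fold change was -0.012 for Nr1h3, -0.13 for Nr1i3, -0.0050 for Nr3c1 and -0.00019 for Rarg, each above 0 without it. Other values near 0 changed sign too. Nr1h3 was at -0.0037 with DESeq2 size factors, -0.0015 without the filter and -0.0030 by the Wald test. Rarg was at -0.0012 with size factors, with counts divided by 4 at -0.0011, and by the Wald test at -0.0013. Pgr was at -0.0041 with counts divided by 4. With a library left out, log2 fold changes that turned their sign ranged as follows by receptor: Esr1 -0.91 to 0.37, Hnf4a -1.88 to 0.51, Nr0b1 -0.23 to 0.17, Nr1d1 -0.30 to 0.35, Nr1d2 -0.38 to 0.12, Nr1h2 -0.23 to 0.22, Nr1h3 -0.22 to 0.19, Nr1i3 -0.85 to 0.55, Nr2e1 -0.31 to 0.098, Nr2f2 -0.093 to 0.14, Nr2f6 -0.46 to 0.13, Nr3c1 -0.32 to 0.30, Nr3c2 -0.25 to 0.27. For the other receptors these ranges were Nr4a1 -0.011 to 0.70, Nr4a2 -0.34 to 0.073, Nr4a3 -1.54 to 0.22, Nr5a1 -0.17 to 0.45, Nr5a2 -0.13 to 0.053, Nr6a1 -0.0067 to 0.034, Pgr -0.66 to 1.10, Ppara -0.15 to 0.47, Pparg -0.33 to 0.35, Rara -0.14 to 0.27, Rarg -0.19 to 0.17 and Rora -0.20 to 0.34. Where the sign held, the ranges were Esr2 -0.14 to -0.015, Esrra -0.46 to -0.08, Esrrb 0.34 to 1.31, Esrrg 0.82 to 1.60, Nr0b2 -0.58 to -0.26, Nr1h4 0.026 to 0.58, Nr2c1 -0.20 to -0.0064, Nr2c2 -0.32 to -0.054, Nr2f1 0.43 to 2.12, Ppard -0.28 to -0.14, Rorb -1.57 to -0.67, Rxra -0.14 to -0.063, Rxrb -0.14 to -0.048, Thra 0.036 to 0.06 and Thrb -1.38 to -0.25. Nr1i2 has no count in NT4 1, and no range is given for it.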
